A study of Mus musculus with 16 samples.

Results

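Red blood cell genes were followed through 16 RNA-seq libraries made from the lungs and livers of newborn Man1a2 mutant mice. The genes were given by name: 40 symbols covering the globins, the enzymes and carriers of heme synthesis, erythroid transcription factors and the erythropoietin receptor, red cell membrane proteins, and enzymes or proteins of late red cell maturation. Of these, 38 were found, on 40 of the 25054 rows of the counts table, because Hba-a1 and Hba-a2 each stood on a pair of rows. Epb42 and Ahsp were not found and were dropped. A mean of at least 1 CPM, a count scaled to a fixed library total, was reached by 38 of the 40 rows, which entered the tests.

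Mice of the C57BL/6J background carried a deletion of exon 2 of Man1a2, which encodes a mannosidase of N-glycan processing, and heterozygous parents were mated. The parents took N-acetyl cysteine (NAC), an antioxidant, at up to 1 g/kg in their drinking water or a placebo, from before mating until delivery. Pups were checked every 8 h and fell into 4 groups: live WT and live heterozygous pups, alive at 24 h, and dead heterozygous and dead null pups, found dead before then. For each group and treatment 1 library was labelled lung and 1 was labelled liver, from RNA pooled over 3 experiments (2 for dead heterozygous pups). WT pups were all live and null pups all dead, and dead pups were younger at collection, so that survival, genotype and age cannot be told apart over all groups. With 1 library for each combination, p-values measure the spread between pooled libraries across groups.

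Red cells are made from committed precursors under the transcription factors GATA1, TAL1 and KLF1 and the hormone erythropoietin. The precursors build heme in mitochondria and cytosol, from ALAS2 to ferrochelatase, join it to alpha- and beta-globin, and then lay down a membrane skeleton of spectrin and ankyrin tied to the anion exchanger band 3 before the nucleus is lost. In the mouse the liver is the main site of red cell formation before birth and still holds precursors in the newborn. The reticulocytes that enter the blood have lost most nuclear regulators but keep globin and ALAS2 transcripts, so that any organ filled with blood carries some of these messages.

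Promoter windows of 250 bases before to 50 bases after the start of transcription were held in the RefSeq promoter table (GRCm38.p6) for 26 of the 38 genes found. The letters AGATAA or TGATAA, the GATA-type motif, stood on either strand in the windows of 15 of the 26 (57.7%), against 21% of the 27025 genes with a window. The KLF-type letters CCACACCC stood in 0 of the 26, against 4.09% of all genes. The letters TATAAA stood in 3 of 26 (11.5%, against 15.7%) and the NFE2-type letters TGAGTCA in 2 of 26 (7.69%, against 5.95%). These motifs did not overlap in the printed windows. A match describes letters and not a bound site. The windows of 4 genes on which the results below turn are given on their own strand, 5′ to 3′, with each GATA-type or TATAAA match on either strand in capitals. Alas2 (chrX:150547167-150547466, plus strand) had the highest level per length of its non-globin group, Klf1 (chr8:84901732-84902031, plus strand) was near absent from lung libraries, and Rhag (chr17:40810899-40811198, plus strand) and Ermap (chr4:119189946-119190245, minus strand) varied most among them, of the genes with more than 3 counts in each.
Alas2: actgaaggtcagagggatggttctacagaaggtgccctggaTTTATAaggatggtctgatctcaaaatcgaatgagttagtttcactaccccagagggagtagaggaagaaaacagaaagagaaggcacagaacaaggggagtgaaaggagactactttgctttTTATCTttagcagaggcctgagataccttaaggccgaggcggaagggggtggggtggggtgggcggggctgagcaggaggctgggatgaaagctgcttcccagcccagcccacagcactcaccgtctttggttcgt
Klf1: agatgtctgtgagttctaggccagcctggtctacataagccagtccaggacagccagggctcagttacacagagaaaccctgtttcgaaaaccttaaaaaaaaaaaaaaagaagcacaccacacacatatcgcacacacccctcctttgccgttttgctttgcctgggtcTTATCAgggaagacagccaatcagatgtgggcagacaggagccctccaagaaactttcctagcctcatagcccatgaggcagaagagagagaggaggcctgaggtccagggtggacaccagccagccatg
Rhag: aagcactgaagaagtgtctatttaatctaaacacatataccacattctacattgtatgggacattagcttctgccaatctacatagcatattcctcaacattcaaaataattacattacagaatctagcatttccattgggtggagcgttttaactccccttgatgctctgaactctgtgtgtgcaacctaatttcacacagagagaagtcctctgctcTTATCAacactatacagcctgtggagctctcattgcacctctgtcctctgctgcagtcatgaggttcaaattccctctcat
Ermap: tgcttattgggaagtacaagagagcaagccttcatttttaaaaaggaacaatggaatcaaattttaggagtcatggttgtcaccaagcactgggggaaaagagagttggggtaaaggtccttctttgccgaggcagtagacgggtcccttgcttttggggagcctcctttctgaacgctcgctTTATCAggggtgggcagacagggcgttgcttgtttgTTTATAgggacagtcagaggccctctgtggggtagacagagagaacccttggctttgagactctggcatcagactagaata
Each of the 4 held 1 GATA-type match, which began 86 bases before the start in Alas2, 80 in Klf1, 31 in Rhag and 67 in Ermap.

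The libraries were grouped by what they held and not only by their labels. Sftpc, the surfactant protein C of lung epithelium, and Alb, the albumin of hepatocytes, divided them into 7 with lung content (Sftpc of at least 1000 CPM, Alb under 1000), 8 with liver content (Alb of at least 50000 CPM) and 1 mixed (dead null placebo labelled lung). Content was that of the label in 7 libraries, was the other organ in 8 and was mixed in 1. By the labels, both dead null NAC libraries had liver content and neither dead null placebo library did. Pup group and treatment were taken from the labels, and whether they hold where the tissue label did not was not tested. Lung content was found in live WT NAC, live heterozygous NAC and dead heterozygous placebo labelled lung, and in live WT placebo, live heterozygous placebo, dead heterozygous NAC and dead null placebo labelled liver. Totals were 7236906 to 11808840 counts in lung content and 14115814 to 16107764 in liver content, so depth went with content. The ribosomal RNA row Rn45s took 4.05% to 26.2% of counts in lung content and 0.845% to 6.29% in liver content. Levels of Man1a2 itself ranged over 41.4 to 75.4 CPM in lung content, with 60.3 in its null library, and over 29.7 to 51.9 in liver content, with 34.3 and 34.9 in its null libraries, so the level over the whole gene did not mark the null genotype.

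Red cell genes were higher in liver content almost throughout. In the comparison of liver with lung content, 37 of 38 rows were higher at an adjusted p under 0.05 and none was lower, where 40.6% of the 14175 rows tested were higher and 76.5% were called in either direction. The median of the 38 log2 fold changes was 2.96, against 0.10 over all rows. Every liver-content library lay above every lung-content library in 28 of the 38 rows, against 26.3% of all rows tested. From the 7 libraries whose content was that of their label alone, 35 of 38 rows were higher, against 31.2% of all rows in that fit, and from the 8 whose content was not, 37 of 39, against 35.4%. The 10 rows with overlap were the 6 adult globin rows, the embryonic globin Hba-x, Alas2, Bpgm and Tmcc2. In bulk RNA, fewer cells of a type and less RNA per cell cannot be told apart.

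**Figure D1:**
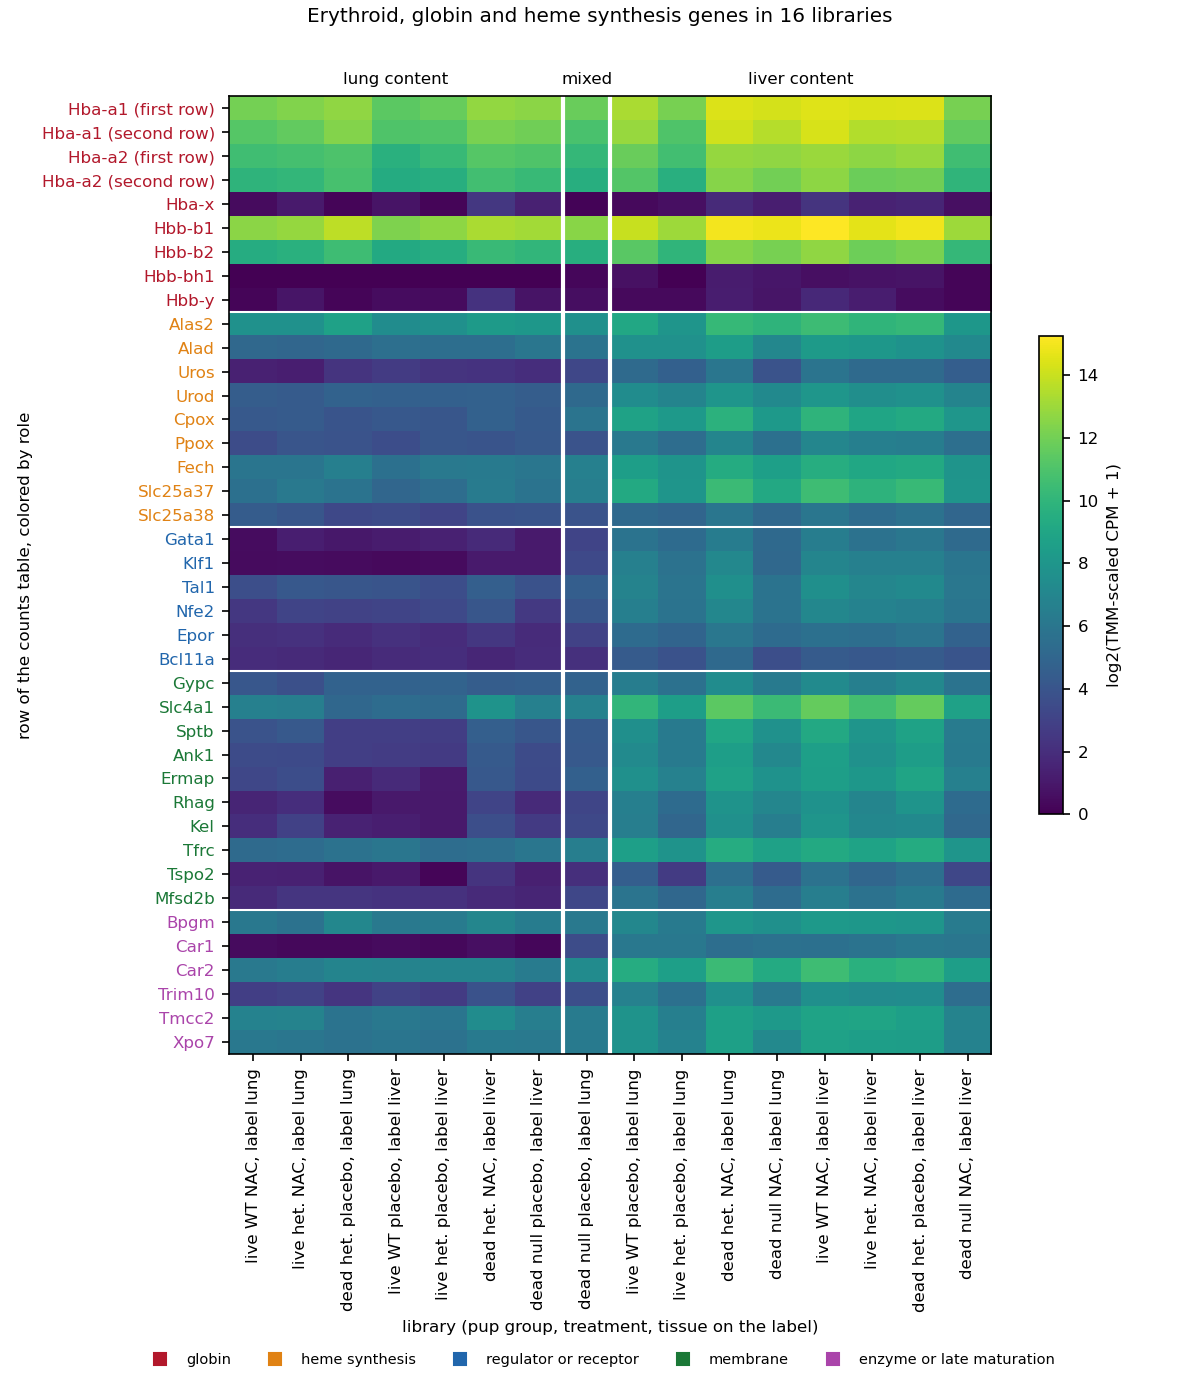
Level of each of the 40 rows (vertical axis, colored and grouped by role) in each of the 16 libraries (horizontal axis, grouped by marker content), as log2 of TMM-scaled CPM plus 1. Adult globin rows are bright in all libraries, whereas Gata1, Klf1 and Car1 are dark in the 7 lung-content libraries and clear in the 8 liver-content libraries.

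The adult globins, the chains of hemoglobin after birth, were abundant in both contents and rose less in liver content than most members. TMM-scaled CPM of Hbb-b1, an adult beta-globin, had a lowest, median and highest value of 5107, 7292 and 13633 in lung content and 8219, 26932 and 38999 in liver content. The ranges overlapped, as live heterozygous placebo and dead null NAC, at 8219 and 8265 in liver content, fell below dead heterozygous placebo in lung content. The log2 fold change of Hbb-b1 was 1.42 ± 0.37 (SE), with an adjusted p of 0.0035. The first Hba-a1 row, an adult alpha-globin, ran from 2672 through 5333 to 7078 CPM in lung content and from 4382 through 20562 to 23516 in liver content, with a log2 fold change of 1.52 ± 0.41. All 6 adult globin rows were called, at log2 fold changes of 1.42 to 1.84. With libraries scaled by their totals alone, which put the median of all rows at -0.56, the second rows of Hba-a1 and Hba-a2 and Hbb-b1 no longer passed, with the direction kept. The same rows did not pass in the fit on libraries whose content was that of their label. The member globin rows together took 1.91% to 4.21% of all counts in lung content and 1.47% to 7.92% in liver content.

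Globin copies are near identical, so each row on its own is uncertain. The Hbb-b2 row held the same values as the row of Hbb-bt (chr7:103812524-103813996, minus strand, GRCm38) in all 16 libraries, and Hbb-b1 stood at 11.5 to 12.1 times Hbb-bs (chr7:103826534-103828096, minus strand) in every library of lung or liver content. C57BL/6 mice carry the Hbb-bs and Hbb-bt genes, and Hbb-b1 and Hbb-b2 name the beta-globins of another haplotype. The methods speak of uniquely mapped abundances, and how the counting treated reads of such copies beyond that is not given in the sources used here. The 6 adult globin rows are therefore not separate observations.

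The embryonic globins were close to absent. Hba-x, the embryonic zeta-globin, had 2 to 53 counts in lung content and 4 to 43 in liver content. In the fit over 15 libraries it was the only row not called between contents (log2 fold change 0.34 ± 0.59, adjusted p = 0.609). Fitted on libraries whose content was that of their label, it passed on few counts (2.24, log2, adjusted p = 0.0234). Hbb-y, an embryonic beta-globin, had 2 to 42 counts in lung content and 2 to 26 in liver content. Hbb-bh1, another embryonic beta-globin, had 0 counts in all 7 lung-content libraries and 0 to 15 in liver content. Hbb-y and Hbb-bh1 did not reach the mean for testing.

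Genes of heme synthesis were all higher in liver content, 9 of 9, at log2 fold changes of 1.61 to 4.75. ALAS2 makes the first precursor of heme in erythroid cells, and its gene Alas2 (chrX:150547375-150570638, plus strand) ran from 167 through 211 to 422 CPM in lung content and from 252 through 987 to 1387 in liver content. These ranges overlapped, and the log2 fold change was 1.61 ± 0.36 (adjusted p = 0.001). Cpox, encoding coproporphyrinogen oxidase, ran from 14.7 through 18.4 to 25.4 CPM and from 263 through 466.2 to 981, with no overlap and a log2 fold change of 4.75 ± 0.35 (adjusted p = 2.95e-08). Between them lay Slc25a37, the mitochondrial iron importer mitoferrin (log2 fold change 3.83), the middle-step enzymes Uros (3.55) and Urod (2.92), ferrochelatase, which inserts the iron (Fech, 2.76), the oxidase Ppox (2.43), the dehydratase Alad (2.42) and Slc25a38, a mitochondrial carrier that serves heme synthesis (1.71). Per kilobase of exon, Alas2 held the highest level of the 34 genes with a length outside the adult globins, at medians of 87.7 CPM per kilobase in lung content and 411 in liver content.

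Of 13 other heme pathway genes tested, 12 were higher and none lower, against 40.6% of all rows higher. Abcb6, a porphyrin transporter, was higher by 3.34 ± 0.14 (log2) and Blvrb, a biliverdin reductase, by 3.28 ± 0.22.

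Transcription factors and the erythropoietin receptor were higher in 6 of 6 rows, with a median log2 fold change of 3.56 and no overlap between contents. Klf1, the erythroid Kruppel-like factor (chr8:84901928-84905291, plus strand), ran from 0.318 through 0.355 to 1.12 CPM in lung content, where the counts were 3 to 13, and from 35.0 through 97.5 to 140 in liver content. Its log2 fold change was 7.24 ± 0.42 (adjusted p = 2.75e-09). Gata1, the master factor of erythroid and megakaryocytic cells (chrX:7959260-7978071, minus strand), ran from 0.444 through 1.27 to 2.50 CPM and from 35.8 through 53.9 to 86.7, a log2 fold change of 5.33 ± 0.35 (adjusted p = 1.04e-08). No lung-content library came near the lowest liver-content library for either factor. Epor, the erythropoietin receptor, was higher by 3.70, Nfe2, an activator of globin genes, by 3.42, Bcl11a, a repressor of embryonic globin genes, by 2.90 and Tal1 by 2.86 (log2). Tal1 kept 11.4 to 23.9 CPM in lung content. It is also expressed in endothelium, whose 7 markers summed to 1490 to 1953 CPM in lung content and 171 to 294 in liver content. The part of endothelium in the Tal1 level was not tested.

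Of 19 other erythroid regulators tested, 10 were higher and 5 lower in liver content. Over all rows, 40.6% were higher and 76.5% were called in either direction, so the list is near those shares. The genes named here are its largest changes, which were all higher. Gfi1b, a partner of GATA1, was higher by 6.31 ± 0.38 (log2, adjusted p = 3.92e-09), Ikzf1 by 3.20 ± 0.19 and Sox6 by 3.07 ± 0.38.

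Red cell membrane genes were higher in 10 of 10 rows, with a median log2 fold change of 4.38. Slc4a1, encoding band 3 (chr11:102348824-102366203, minus strand), ran from 33.2 through 89.1 to 229 CPM in lung content and from 380 through 1506 to 3267 in liver content, with a log2 fold change of 4.32 ± 0.56 (adjusted p = 7.88e-06). Rhag, the Rh-associated glycoprotein, ran from 0.424 through 1.95 to 7.58 CPM and from 39.0 through 125.5 to 239, a log2 fold change of 5.87 ± 0.56. Ermap, an erythroblast membrane protein, followed at 5.31 ± 0.53, and Kel, the Kell blood group protein, at 4.86 ± 0.53. The skeleton genes Ank1 (4.51) and Sptb (4.44), the porphyrin-binding membrane protein gene Tspo2 (4.21) and the lipid transporter gene Mfsd2b (4.21) lay close together. Tfrc, the transferrin receptor through which precursors take up iron, and Gypc, glycophorin C, both of which many cell types use, were higher by 3.24 and 2.25. All 10 were free of overlap between contents.

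Of 17 other erythroid membrane genes tested, 11 were higher and 4 lower, against 40.6% of all rows higher and 76.5% in either direction. The genes named here are the largest changes, which were all higher. Rhd was higher by 6.02 ± 0.50 (log2, adjusted p = 9.31e-08), Icam4 by 5.35 ± 0.56 and Slc14a1, the urea transporter, by 5.32 ± 0.28.

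Among enzymes and late maturation genes, 6 of 6 rows were higher, from the largest to near the smallest fold change of all members. Car1, carbonic anhydrase 1 (chr3:14766216-14808368, minus strand), had 2 to 7 counts in each lung-content library, or 0.223 through 0.279 to 0.517 CPM, and 43.9 through 58.8 to 67.9 CPM in liver content. Its log2 fold change of 7.40 ± 0.18 had the lowest adjusted p of the members, 3.85e-12. Trim10, a late erythroid ubiquitin ligase gene (4.05), Car2, carbonic anhydrase 2 (3.00), and Xpo7, an exportin (2.00), did not overlap. Tmcc2 (1.60) and Bpgm, encoding bisphosphoglycerate mutase of red cells (1.04 ± 0.30, adjusted p = 0.00581), overlapped between contents. Bpgm did not pass with libraries scaled by their totals alone.

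Of 28 other late erythroid genes tested, 25 were higher and none lower, against 40.6% of all rows higher. They were led by Pklr, a pyruvate kinase of red cells and hepatocytes (7.36 ± 0.38, log2), Hemgn, hemogen (6.88 ± 0.48), and the noncoding RNA gene Redrum (6.77 ± 0.87). Of the other globins of the C57BL haplotype and related genes, 4 were tested. Hbq1b (4.13 ± 0.45) and Hbb-bt (1.84 ± 0.38) were among 3 that were higher, and Cygb, cytoglobin of fibroblasts, was lower (-1.66 ± 0.14).

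**Figure D2:**
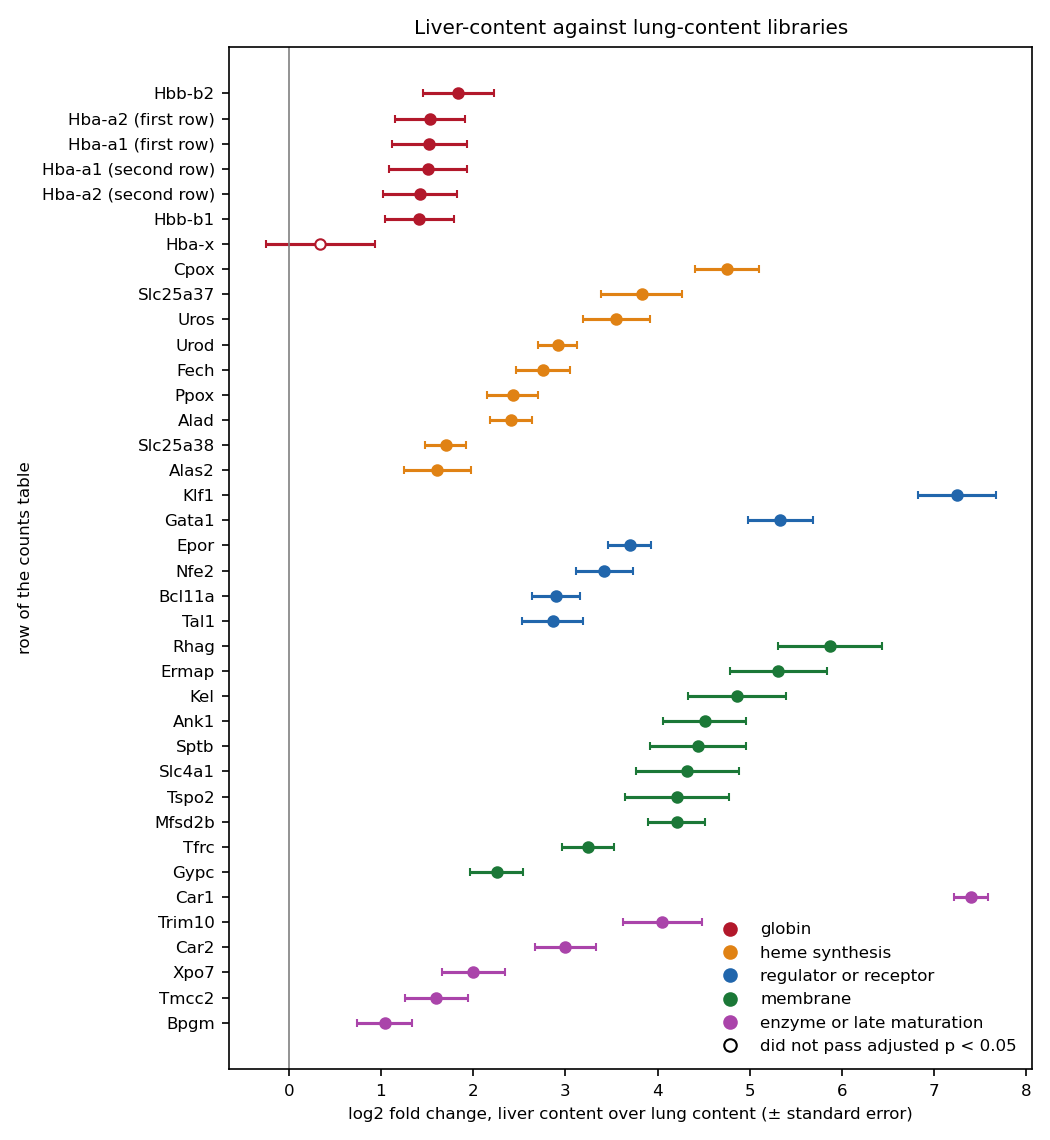
Log2 fold change of liver-content over lung-content libraries (horizontal axis, with the standard error as bars) for the 38 tested rows (vertical axis), grouped and colored by role, where the open point did not pass an adjusted p under 0.05. Adult globins and Alas2 lie between 1.42 and 1.84, whereas Klf1 and Car1 lie above 7.

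Gata1, Klf1, Car1 and Slc4a1 were set against Alas2 within each library, a ratio that does not refer to depth. The other regulators are not given in this way. Gata1 stood at 2.11 to 8.23 counts per 1000 Alas2 counts in lung content and at 37.1 to 155 in liver content. The same ratio was 0.804 to 4.19 and 36.3 to 223 for Klf1, and 0.603 to 2.22 and 34.3 to 268 for Car1. For Slc4a1 it was 78.8 to 717 and 1417 to 2871. None of these 4 ranges overlapped between contents. All 4 genes were already free of overlap and rose more than Alas2, so this is not separate support. The share of all rows that separate in this way was not counted. The mixed library, at 37.7 for Gata1, 46.1 for Klf1 and 51.5 for Car1, lay at the low end of liver content. At 505 for Slc4a1 it lay within the range of lung content. It had Sftpc of 5553 CPM and Alb of 9280 CPM, and its Klf1, Gata1 and Car1 levels were 9.40, 7.68 and 10.5 CPM.

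**Figure D3:**
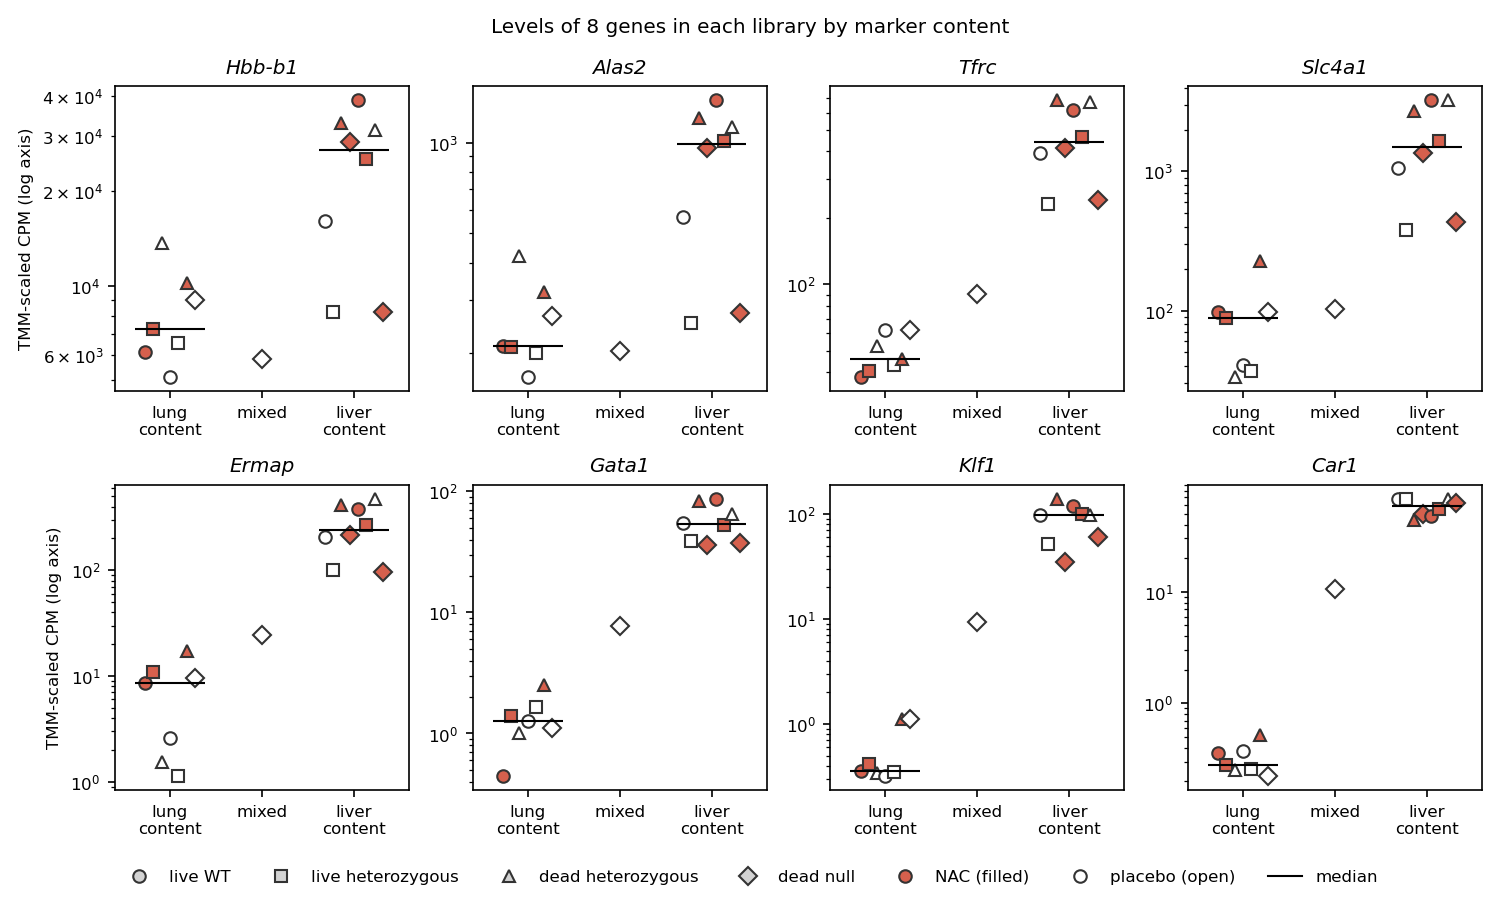
TMM-scaled CPM (log axis) of 8 genes in each library, by marker content, with the symbol giving the pup group, filled symbols NAC, open symbols placebo and the line the median. Hbb-b1 and Alas2 overlap between contents, and Gata1, Klf1 and Car1 do not. Car1 spans 43.9 to 67.9 in liver content, where Slc4a1 spans 380 to 3267.

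Liver-content libraries varied widely among themselves. The highest library exceeded the lowest by a median of 4.24-fold over the 38 rows, against 2.58-fold over the 34 rows with more than 3 counts in every lung-content library. The second Hba-a1 row varied 9.82-fold, Tspo2 9.93-fold and Slc4a1 8.59-fold in liver content, but Gata1 2.42-fold, Alad 2.63-fold and Car1 1.55-fold. The lowest library was live heterozygous placebo labelled lung in 19 rows, dead null NAC labelled liver in 10 and dead null NAC labelled lung in 7. The highest was live WT NAC labelled liver in 24 rows and dead heterozygous NAC labelled lung in 10.

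The pair of dead null NAC libraries with liver content was alike in group and treatment by the labels. It gives the spread within 1 condition only if those labels hold, which was not tested. The library labelled lung exceeded that labelled liver by over 2-fold in 17 of 38 rows and lay below it in 8. Hbb-b1 was at 28532 and 8265 CPM, Alas2 at 963 and 273, and Slc4a1 at 1365 and 430. Klf1 went the other way, at 35.0 and 61.0, as did Uros at 13.9 and 22.3, and Gata1 was at 35.8 and 37.3. Globin, Alas2 and band 3 levels differed by more than those of the nuclear regulators between these libraries. Other measures moved too: the 8 proliferation markers summed to 1590 and 685 CPM, the 8 megakaryocyte and platelet markers to 449 and 315, and Rn45s took 4.41% and 6.29% of counts. Their part in the differences was not tested.

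Across liver content the proliferation markers summed to between 685 and 2319 CPM. They were lowest in dead null NAC labelled liver (685), live heterozygous placebo (710) and live WT placebo (1089), the libraries that were also lowest for Hbb-b1, Alas2 and Slc4a1. Rn45s took 6.29%, 4.54% and 1.99% of counts in those 3 libraries and 0.845% to 4.41% in the other 5. The part of either in the members' levels was not tested.

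NAC was compared with placebo within lung content, over 3 NAC and 4 placebo libraries, to ask whether the treatment went with red cell genes. At an adjusted p under 0.05 edgeR called 0 of 38 rows, where 1.26% of all rows were called. By unadjusted p 5 rows were under 0.05, against 23.9% of all rows, and DESeq2 called 2, Ermap and Kel, against 9.43% of all rows. The largest differences were in membrane genes. Ermap (chr4:119175457-119190011, minus strand) was at 8.62, 11.002 and 17.4 CPM in the NAC libraries of live WT, live heterozygous and dead heterozygous pups, and at 2.596, 1.13 and 1.53 in the placebo libraries of the same groups. In dead null placebo, which had no NAC partner in lung content, it was at 9.58 CPM. The log2 fold change was 2.06 ± 0.67, with a p of 0.0086 and an adjusted p of 0.104 (edgeR quasi-likelihood test).

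Slc4a1, Kel and Rhag were also higher in each NAC library than in the placebo library of its pup group. Slc4a1 was at 97.4, 89.1 and 229 CPM with NAC, at 40.6, 37.0 and 33.2 in the matching placebo libraries and at 97.0 in dead null placebo (log2 fold change 1.49 ± 0.68, adjusted p = 0.201). Kel was at 3.02, 6.69 and 11.5 CPM, at 1.43, 1.04 and 1.70, and at 5.01 (1.86 ± 0.71, adjusted p = 0.145). Rhag was at 1.95, 2.92 and 7.58 CPM, at 1.06, 1.04 and 0.424, and at 2.56 (1.76 ± 0.77, adjusted p = 0.188). NAC and placebo overlapped in each of these 4 genes only through dead null placebo, which stood above the other placebo libraries. For all 4 genes, both NAC libraries labelled lung were above the placebo library labelled lung. The NAC library labelled liver was above all 3 placebo libraries labelled liver. These genes were named for their differences in the same libraries, so this order is not separate support. The share of all rows in this order was not counted, and the part of the tissue label was not tested.

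The call depended on the fit. Fitted on lung-content libraries alone, 7 of 37 rows were higher with NAC, against 8.38% of all rows in that fit: Ermap, Slc4a1, Kel, Sptb, Ank1, Tmcc2 and Slc25a37, with adjusted p-values of 0.0219 to 0.0412. Fitted on the same libraries with the pup group as a replicate block, which rests on 3 pairs and was chosen after the data were seen, 12 of 37 rows were higher and 1 lower, against 14.7% of all rows higher and 25.4% in either direction. The higher rows were Ermap (2.77, log2, adjusted p = 0.00257), Kel, Rhag, Slc4a1 (1.78), Sptb, Ank1, Tspo2, Tmcc2, Slc25a37, Slc25a38 and the first rows of Hba-a1 (0.49, adjusted p = 0.0431) and Hba-a2, and the lower row was Gypc (-0.70, adjusted p = 0.0371). In the fit over both contents, without dead null placebo labelled liver or without dead null NAC labelled liver, only Ermap passed, where 5.99% and 6.52% of all rows did. With all 15 libraries in the fit over both contents, the 7 globin rows differed by 0.06 to 1.44 with a median of 0.34 (log2). Hbb-b1 differed by 0.06 ± 0.53, the first Hba-a1 row by 0.46 ± 0.58 and Alas2 by 0.08 ± 0.51, each within its standard error, and Hba-x by 1.44 ± 0.88 on few counts. Klf1 was at 0.355, 0.418 and 1.12 CPM with NAC and at 0.318 to 1.11 with placebo, and Car1 at 0.279 to 0.517 and 0.223 to 0.371, both near the lower limit of counting.

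Markers of another kind moved in the same direction in lung content. The 8 markers of neutrophil precursors summed to 179, 226 and 246 CPM in the NAC libraries and to 99.1 to 138 with placebo, with no overlap, and 1 of the 8, Mpo, myeloperoxidase, was called (2.45 ± 0.52, adjusted p = 0.0478). The 10 hepatocyte markers summed to 728 to 1141 CPM with NAC and to 183 to 762 with placebo, so these ranges overlapped. Of these markers 0 were called and not all were higher with NAC, with a median log2 fold change of 0.33. How many of all rows separate NAC from placebo libraries was not counted. The part of any of these lists in the membrane gene differences was not tested.

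In liver content NAC was compared with placebo over 5 and 3 libraries, and 0 of 38 rows were called, where 0% of all rows were. By unadjusted p only Car1 was under 0.05 in that fit, against 3.68% of all rows, and DESeq2 called 0 as well. With that content alone and the pup group as a replicate block, 0 of 38 rows and 0% of all rows were called, and 18 had an unadjusted p under 0.05, against 4.9% of all rows. The fold changes lay above 0 in 37 of 38 rows with a median of 0.32 (log2), against 0.01 over all rows, and ran from -0.39 ± 0.16 for Car1 to 1.09 ± 0.82 for Hba-x. Hbb-b1 differed by 0.54 ± 0.51 and Alas2 by 0.59 ± 0.48, each little more than its standard error. Hbb-b1 was at 16086, 8219 and 31209 CPM in the placebo libraries of live WT, live heterozygous and dead heterozygous pups and at 38999, 25333 and 32976 in the NAC libraries of the same groups. Dead null NAC added 28532 and 8265, so the treatment groups overlapped almost wholly.

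Pairs of 1 NAC and 1 placebo library of the same pup group and content were described next, with no replicate check and no p-value. A row was counted where the pair differed by at least 2-fold. In liver content the live WT pair had 20 of 39 tested rows higher with NAC and none lower, against 6.58% of all rows higher, and the live heterozygous pair had 24 of 37 higher and none lower, against 3.46%. The dead heterozygous pair had 0 of 38 in either direction, against 3.54% higher. In the live pairs, Slc4a1 was higher by 1.64 and 2.12 (log2), Alas2 by 1.29 and 2.00, and Gata1 by 0.66 and 0.44. In both live pairs the placebo library was labelled lung and the NAC library liver, and in the dead heterozygous pair the labels were the other way round, so the label and the treatment cannot be told apart within a pair. The proliferation markers summed to 2319 CPM with NAC and 1089 with placebo in the live WT pair, to 1461 and 710 in the live heterozygous pair and to 2268 and 2037 in the dead heterozygous pair. The neutrophil precursor markers summed to 5113 and 2774, to 4026 and 2707, and to 4686 and 3980 CPM in the same pairs. Both lists thus differed more in the live pairs, and their part in the members' differences was not tested.

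In lung content the live WT pair had 5 of 35 rows higher and 2 lower, against 5.83% of all rows higher and 14.1% in either direction. The live heterozygous pair had 6 of 34 higher and 2 lower, against 9.41% and 25.1%. With libraries scaled by their totals alone, the live WT pair had 1 row higher and 5 lower, against 3.3% and 16.3% of all rows, and the live heterozygous pair 4 and 2, against 4.09% and 27.8%. The dead heterozygous pair had 13 of 37 higher and none lower, against 7.14% higher. Slc4a1 was higher by 1.26, 1.27 and 2.78 (log2) in the live WT, live heterozygous and dead heterozygous pairs, and Ermap by 1.73, 3.27 and 3.50. Uros was lower by 1.69 and 1.51 in the live pairs, at 10 or more counts in each library, on a row whose gene overlaps Bccip on the other strand, and Gypc in the live heterozygous pair and Gata1 in the live WT pair were the other rows that were lower.

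Over the 3 pairs of each content, 33 of the 38 rows were above placebo in all 3 liver-content pairs, against 17.2% of all rows, and only Car1 was below in all 3. In lung content 15 of 38 rows were above in all 3, against 28.2% of all rows, among them Slc4a1, Sptb, Ank1, Ermap, Rhag, Kel and Tspo2 of the membrane group. Uros, Urod, Gypc, Tfrc, Bpgm and Car2 were below in all 3. In the dead heterozygous pair Car2 was at only -0.001 and Urod at -0.04 (log2). The share of all rows below in all 3 was not counted for either content. These rows share libraries and so are not independent.

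**Figure D4:**
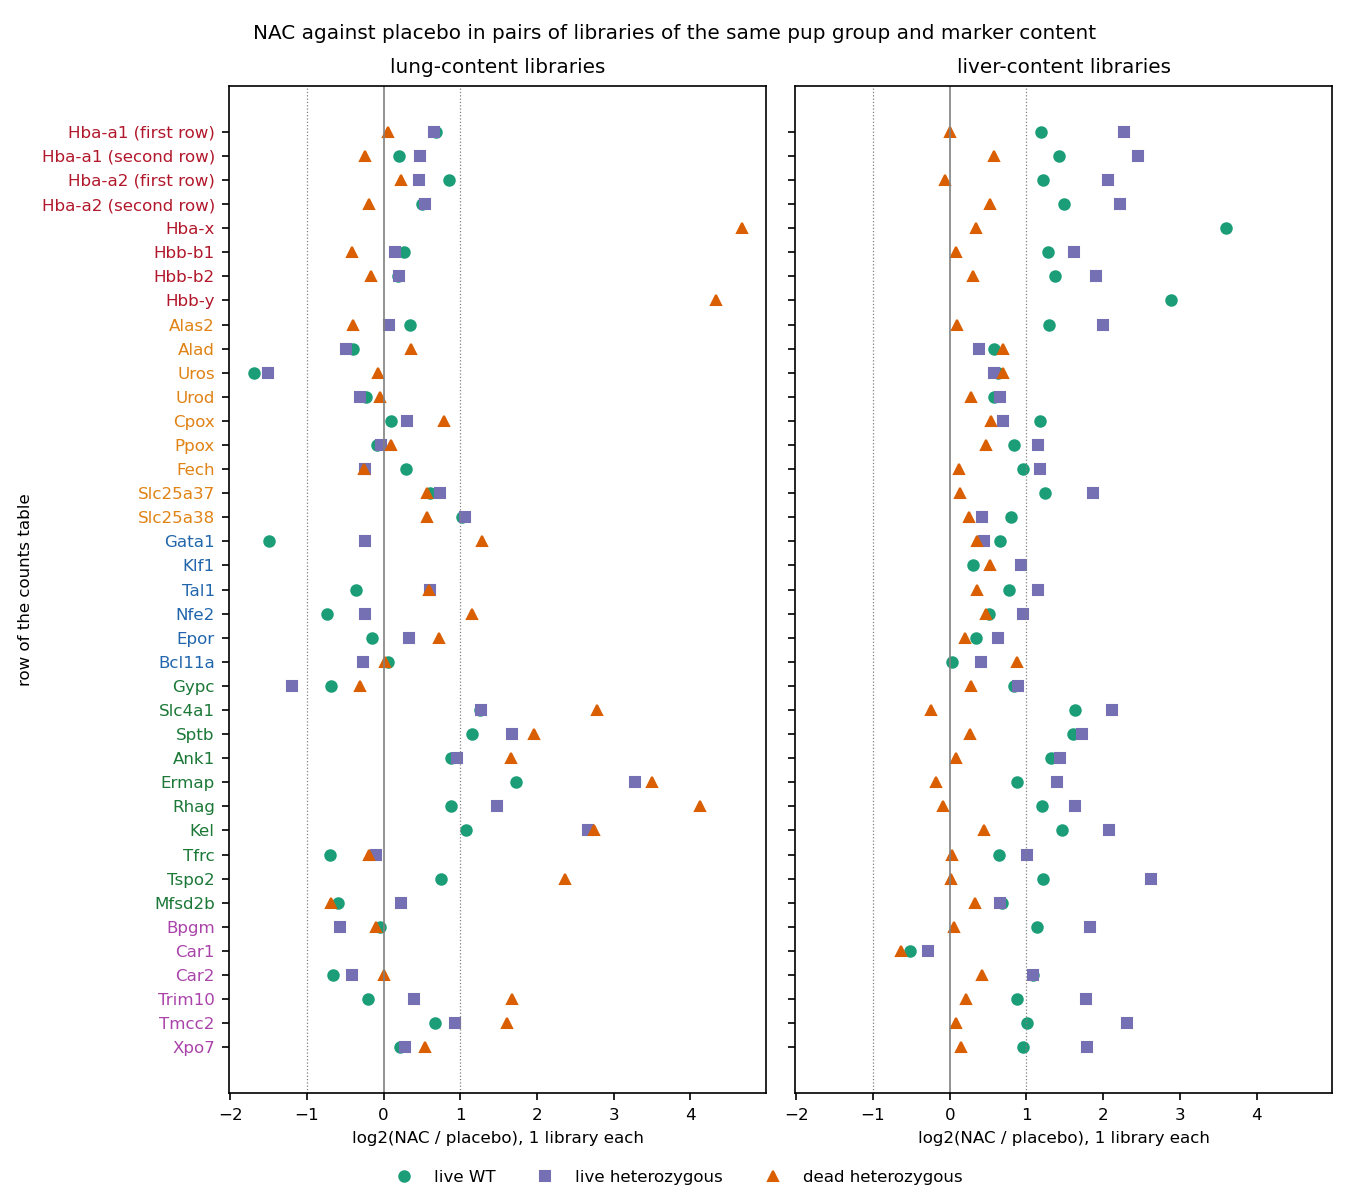
Log2 ratio of the NAC to the placebo library (horizontal axis, dotted lines at 2-fold) for each row (vertical axis, colored by role) in the pairs of the same pup group and content, with the symbol giving the pup group and no error bars, since each pair is 1 library against 1. In lung content Slc4a1 (1.26, 1.27 and 2.78) and 6 other membrane genes lie to the right, Gypc and Tfrc to the left and the adult globins between -0.42 and 0.86, and in liver content the live pairs lie right of the dead heterozygous pair.

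Taken as labelled, the NAC and placebo libraries of a pup group differed in content in 8 of 8 pairs, lung against liver content in 7 and liver against mixed in 1. Most member rows were higher in the library of liver content. Rows past 2-fold, higher and lower with NAC, numbered 0 and 35 of 37 in live WT labelled lung, 0 and 26 of 37 in live heterozygous labelled lung, 37 and 0 of 38 in dead heterozygous labelled lung, and 35 and 0 of 37 in dead null labelled lung. The shares of all rows past 2-fold in those pairs were 56%, 60.4%, 51.3% and 47%. For libraries labelled liver the numbers were 39 and 0 of 39 in live WT, 37 and 0 of 37 in live heterozygous, 2 and 36 of 39 in dead heterozygous and 27 and 1 of 38 in dead null pups, with shares of 50%, 50.4%, 52% and 55.9% of all rows. With the 4 pup groups as replicates, edgeR called 0 of 37 rows in libraries labelled lung and 0 of 39 in those labelled liver, where 0% of all rows were called in each. No member had an unadjusted p under 0.05 in either, 0 of each, against 2.17% and 0.428% of all rows, and DESeq2 called 0 and 6, where it called 5.16% of all rows in libraries labelled liver. Leaving out dead heterozygous NAC or dead heterozygous placebo labelled liver, the pair in which content ran the other way, gave 30 called rows, all higher with NAC, against 30.4% and 29.9% of all rows higher in those fits.

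Dead and live pups were compared within each content to ask whether survival went with red cell genes. In lung content 0 of 38 rows were called, where 0% of all rows were, 0 had an unadjusted p under 0.05, against 2% of all rows, and DESeq2 called 0. The fold changes had a median of 0.39 (log2), against 0.00 over all rows, and were above 0 in 36 of 38. The 6 adult globin rows were higher in dead pups by 0.81 to 0.99, each short of passing. Hbb-b1 was at 13633, 10197 and 8962 CPM in dead pups and at 6136, 7292, 5107 and 6582 in live pups (0.81 ± 0.53, adjusted p = 1). Alas2 was at 422, 319 and 265 CPM in dead pups and at 211, 210, 167 and 200 in live pups (0.78 ± 0.50, adjusted p = 1). How many of all rows separate dead from live libraries was not counted, so these values do not set the members apart.

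In liver content 0 of 38 rows were called between dead and live pups, where 0.134% of all rows were, 0 had an unadjusted p under 0.05, against 9.04% of all rows, and DESeq2 called 0. Hbb-b1 was at 32976, 31209, 28532 and 8265 CPM in dead pups and at 38999, 25333, 16086 and 8219 in live pups, an overlap of nearly the whole range (0.21 ± 0.48). Among heterozygous pups alone, 2 dead and 2 live libraries, 6 of 39 rows were higher in dead pups, against 2.26% of all rows in that fit. They were Sptb, beta-spectrin (1.82, log2, adjusted p = 0.0207), Ank1 (1.48), Ermap (1.44), Kel (1.41), Gypc (1.14) and Mfsd2b (0.97). Sptb was at 530 and 441 CPM in dead and at 248 and 74.9 in live heterozygous libraries, whereas in dead null NAC it was at 213 and 81.9.

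No difference of effects between contents passed its test. The difference of the NAC effect between liver and lung content was called for 0 of 38 rows, where 0% of all rows were, 1 had an unadjusted p under 0.05, against 13.7% of all rows, and DESeq2 called 0. Over the 10 membrane rows the median of that difference was -0.95 (log2), and over the 7 globin rows 0.48. The difference of the dead against live effect was called for 0 of 38 rows, where 0.00705% of all rows were, 0 had an unadjusted p under 0.05, against 4.7% of all rows, and DESeq2 called 0. Other erythroid and heme genes gave no call in the fit over both contents: of 13 other heme pathway genes, 19 regulators, 17 membrane genes and 28 late genes, 0 passed for NAC or for dead against live pups in either content.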

How the data were processed

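Pooled RNA from pup lungs and livers was sequenced in 16 libraries. The authors aligned reads with OSA to mouse build B38 (mm10) with Ensembl genes, used edgeR 3.30.3 in R 4.0.3, and deposited expected counts (estimated counts per gene, 6.50% to 8.24% of values not whole), which were rounded here. Whether counting used strand is not given in the sources used here. Columns of other samples numbered 0.

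Members and lists were chosen with earlier results of these data known. Libraries were grouped by Sftpc and Alb content. Rows with a mean of at least 1 CPM (14175) were tested with the quasi-likelihood test of edgeR 4.0.16 in R 4.3.3 on TMM-scaled counts, in 1 fit over 15 libraries (content by status, treatment within content), checked on simulated data. A row was called at a Benjamini-Hochberg adjusted p under 0.05 over all rows tested. CPM in the text are TMM-scaled, except the Sftpc and Alb levels that define content. Pairs of 1 library each used log2 ratios with a prior count of 0.125. Named were all members, the 3 largest called changes of each other list, Sftpc, Alb and Man1a2, and Mpo, which was chosen after its value was seen. A gene named by this rule is not reported here. Overlaps between genes came from GENCODE release 21 of the mouse (GRCm38): 12 of the 36 members placed there overlap another gene, among them Alas2, Ank1, Cpox and Uros, and without strand their reads cannot be told apart. Alternatives were DESeq2 1.42.0, other scalings, filters, subsets and each library left out. Figures were drawn with matplotlib 3.10.9.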

Additional observations from a re-analysis of the deposited data

Results flagged for a closer look

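Within each content the libraries of each member were searched for a value that stood apart from the nearest other library by more than Dixon's 95% critical value for the gap. Of 79 sets of values, 9 held such a value. Chance gives about 1 in 20 for independent sets. The sets here share the same libraries, so the count cannot be judged against that rate. In 8 of the 9 the library was dead heterozygous NAC labelled liver, of lung content: Slc4a1 at 229 CPM (nearest other library 97.4), Ank1 at 19.1 (10.2), Rhag at 7.58 (2.92), Tspo2 at 3.96 (1.78), Trim10 at 13.3 (7.10), Nfe2 at 15.6 (9.11), Hba-x at 4.56 (1.67) and Hbb-y at 3.62 (0.836). Hba-x and Hbb-y rested there on 53 and 42 counts. In liver content dead heterozygous NAC labelled lung stood apart for Bcl11a, at 36.7 CPM (nearest 20.1). In the same lung-content library the 10 hepatocyte markers summed to 1141 CPM and the 8 neutrophil precursor markers to 246 CPM, each the highest of the 7. Their part in these values was not tested.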

How the results depend on the processing

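The higher levels in liver content kept their direction and number of calls, 33 to 38 rows, under other scalings, filters, DESeq2, subsets and each library left out. Splitting libraries by whether label and content agree, summing rows of 1 symbol, and the pup group as a replicate block within a content were added after the data were seen. With tissue taken from the labels 0 rows were called, and Gata1 (-0.039), Klf1 (-0.10), Epor (-0.053), Car1 (-0.35) and Bcl11a (-0.22) turned to the other side of 0, since the labels mix the contents. For NAC in lung content, 0 called rows became 2 with DESeq2, 7 with that content alone, 13 with the pup group as a replicate block in that content and 0 to 1 with each library left out. For dead against live pups in liver content, heterozygous pups alone gave 6, with Kel turned from -0.03 to 1.41. For NAC in libraries labelled liver, DESeq2 gave 6, and leaving out each library gave 0 to 30. The cause of these shifts was not tested. With the exact test and assumed coefficient of variation of the study, or a 4-fold limit, pair counts in either direction were, in lung content, 2 (1 higher, 1 lower) and 0 for live WT pups, against 4.38% and 2.72% of all rows, and 4 and 2 for live heterozygous pups, against 11.5% and 5.41%. In liver content they were 11 and 2 for live WT pups, against 5.11% and 2.47%. The 4-fold limit left 7 for dead heterozygous pups in lung content (2.51% of all rows). For live heterozygous pups in liver content it left 9 (0.82%). The exact test called 11 of 37 and 18 of 37 in these pairs, all higher. Over all rows it called 420 of 14043 higher and 210 lower in the first pair, and 150 of 12934 and 36 in the second. In the dead heterozygous pair of liver content it called 0 of 38, and 86 of all 12897 rows higher and 60 lower. That pair also had 0 at 4-fold, where 81 of all rows were higher and 29 lower. All 6 pairs together held 46 by the exact test and 20 at 4-fold. The share of all rows behind these totals was not counted. The replicate block pairs libraries by pup group alone, since each group has 1 library, and in liver content it left 0 calls. Depth limits Klf1, Car1 and the embryonic globins in lung content, at a few counts a library. Lists described by their counts have no test of their own.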
